A study of Bos taurus with 11 samples.

Results

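Close stroma was compared with far stroma in the mammary gland of untreated Holstein heifers aged 10 to 12 months. Close stroma came from heifers 3, 4 and 5 (n = 3) and far stroma from heifers 1, 3, 4 and 5 (n = 4). These are 7 of the 11 samples of the study, and 3 heifers gave both stromal regions. The remaining samples are parenchyma of heifers 1, 3, 4 and 5 (n = 4), which served to place close stroma against both of its neighbours. No distance from the parenchyma is given in the labels for either stromal region, and no agent or genotype differs between the groups. Every gene with a mean of 10 or more normalised counts in close stroma or in far stroma was taken, whatever its difference, which gave 14235 of 16279 genes. A further 2044 genes did not reach that level and were not tested, and 1144 of the tested genes carry no symbol. The header of the close stroma column of heifer 4 ends in a letter that the labels do not explain, so values without that sample are given beside the results.

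The mammary gland of a heifer before pregnancy consists of epithelial ducts with their connective tissue, the parenchyma, which grow into a fat pad. The epithelium has an inner luminal layer, some of whose cells carry oestrogen and progesterone receptors, and an outer basal or myoepithelial layer. The stroma holds adipocytes, fibroblasts with their collagen matrix, vessels and immune cells, and it sends signals such as fibroblast growth factors, insulin-like growth factor and WNT agonists to the epithelium.

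Of the 14235 genes, 1728 (12.1%) were higher and 980 (6.88%) were lower in close stroma than in far stroma (limma with the heifer as a block, adjusted p under 0.05). Calls of at least 2-fold numbered 1473 higher (10.3% of the tested genes) and 511 lower (3.59%). The median log2 difference over all tested genes was -0.01. Recovered reads ran from 7274474 to 10557937 per stromal sample. Along principal component 1 (70.7% of the variance) close stroma lay at -15.3 in heifer 3, 51.8 in heifer 4 and 33.8 in heifer 5, between far stroma (-124.1 to -100.5) and parenchyma (89.1 to 101.2). The close stroma of heifer 3 was thus the nearest to far stroma. Although labelled stroma, the close stroma samples held luminal epithelial genes at 42.0% to 97.0% of the summed level in parenchyma of the same heifer. Counts of lower genes depended on single libraries. Without the close stroma of heifer 4, 885 genes were called higher and 56 lower, without that of heifer 5, 920 and 83, and without that of heifer 3, 2712 and 2297. Without the far stroma of heifer 4 the counts were 1129 and 167, without that of heifer 5 they were 1194 and 317, and without the parenchyma of heifer 4 they were 1412 and 652.

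Scaling moved the split of higher and lower genes as well. Scaling to the library total shifted the median of all genes by 0.359 and gave 3156 higher and 337 lower genes. Centring each library on the fibroblast identity list described below shifted it, and the log2 difference of every gene, by 1.23. After centring, limma estimated an infinite number of prior degrees of freedom, so its p-values on that scale do not carry the spread of single genes between heifers. Counts of its calls are given only where the dependence on processing is described, and no result rests on them. Values from that fit given with genes and lists are differences only. With the variance of each gene alone, a fit chosen after the data were seen, 817 genes were higher and 1 lower after centring, against 744 and 131 on the deposited scale. With that centring every list below with a negative median, except the erythrocyte list of 1 gene, had a positive one. Directions in the text are therefore those of the deposited scaling, and a value after fibroblast centring is given where it has the other sign. The heifers are separate animals, and 3 of them gave both stromal regions. With the heifer as a block, steady differences between heifers are taken out. The p-values then set the mean difference between regions against its variation from heifer to heifer. In limma that variation is not each gene's own alone, since it is moderated towards a trend over all genes.

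**Figure D1:**
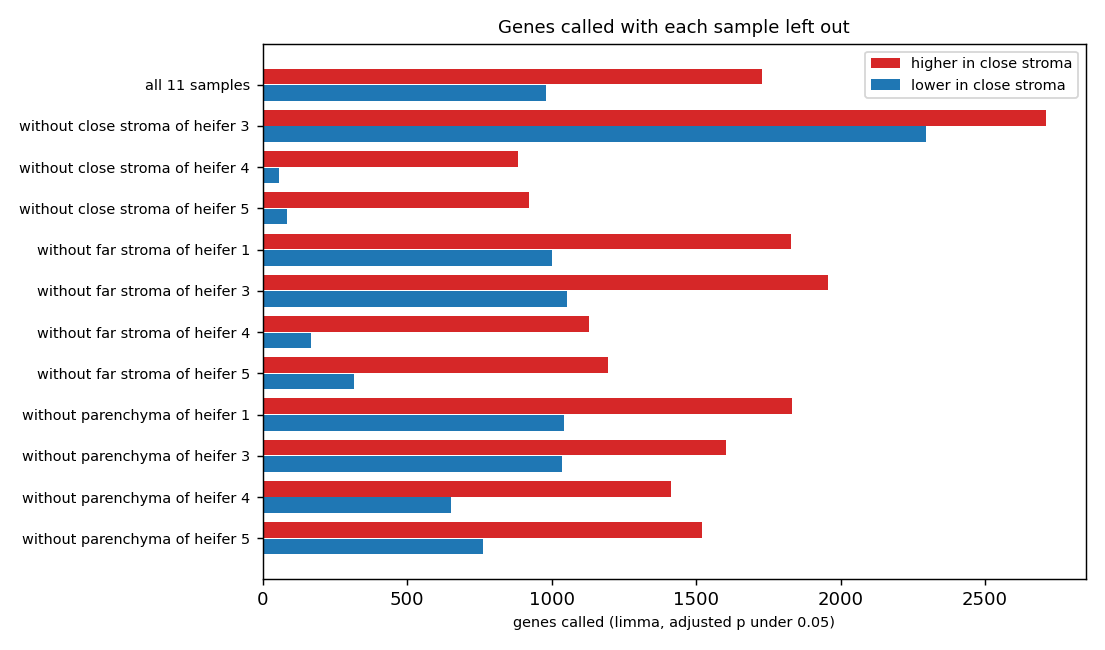
Number of genes called higher (red bars) or lower (blue bars) in close stroma than in far stroma, with all 11 samples and with each sample left out in turn. The count of lower genes was 980 with all samples and 56 and 83 without the close stroma of heifer 4 or 5, while the count of higher genes stayed at 885 or more.

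Per-sample values are in normalised counts and run over heifers 3, 4 and 5 in close stroma and over heifers 1, 3, 4 and 5 in far stroma and in parenchyma, in that order. Differences are on the log2(value + 1) scale, close stroma minus far stroma unless stated, with standard errors. Each paragraph ends with the samples whose removal changed the call of a named gene, with the adjusted p of the fits without them, and a count of list members is given again where leaving out 1 sample, another tool or the block moved it by over 1.5 times. Calls of named genes lost or gained with library-total scaling, edgeR with TMM or DESeq2 are given there as well. Called members of a list that are given by name alone were named after their values were seen. Among all genes tested, 12.1% were higher and 6.88% lower than in far stroma, and 6.69% higher and 3.34% lower than in parenchyma. List counts below stand beside these shares. Where a list had no call in a direction, the unadjusted count beside it is for that direction.

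Luminal epithelial genes were abundant in close stroma and low in far stroma. Of 26 luminal genes, 25 were higher and none was lower, with 0 at an unadjusted p under 0.05 (median log2 difference 7.23, or 7.54 with 4 low-read members set at their pooled read ratio). Among all genes tested 12.1% were higher and 6.88% lower. Their summed normalised counts in close stroma amounted to 42.0% of the parenchyma sum in heifer 3, 97.0% in heifer 4 and 55.1% in heifer 5. KRT8, a keratin of luminal cells, had 1429, 2490.1 and 1895 in close stroma, against 10.8, 3.60, 15.8 and 4.84 in far stroma, and 2874, 3257, 3746 and 3462 in parenchyma (log2 difference 7.83 ± 0.31, adjusted p = 3.64e-07). Every close stroma sample lay far above every far stroma sample. KRT7, another luminal keratin, had 3465, 5630.0 and 3268 in close stroma, against 11.7, 4.80, 13.5 and 6.45 in far stroma (log2 difference 8.75 ± 0.27, adjusted p = 1.68e-07). EPCAM, an adhesion molecule of epithelia, was detected in all samples, with 776, 2634 and 1669 in close stroma, against 96.9, 92.4, 48.5 and 124 in far stroma (log2 difference 4.11 ± 0.40, adjusted p = 8.42e-05). The tight junction genes CLDN3 (log2 difference 7.57 ± 0.27, adjusted p = 1.97e-07) and CLDN4 (log2 difference 5.98 ± 0.24, adjusted p = 3.64e-07) rose, and so did SFN, an epithelial 14-3-3 protein (log2 difference 6.52 ± 0.29, adjusted p = 7.02e-07). FOXA1, which encodes a factor that opens chromatin for the oestrogen receptor, had 2578 reads in the close stroma samples together and 2 in the far stroma samples, a ratio of 1350 (95% counting interval 373 to 11100). PIGR, which carries immunoglobulin A across epithelium, was higher than in far stroma (log2 difference 8.51 ± 0.29, adjusted p = 1.68e-07) and lower than in parenchyma (log2 difference -1.65, adjusted p = 0.00826). It was the 1 luminal gene called lower than parenchyma, and none was higher, against 3.34% lower and 6.69% higher among all genes tested.

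Basal cell genes were likewise higher. Of 22 basal and myoepithelial genes, 19 were higher and none was lower, with 0 at an unadjusted p under 0.05 (median log2 difference 5.22). KRT5, a basal keratin, had 1299, 3311 and 2574 in close stroma, against 6.85, 2.40, 6.77 and 8.06 in far stroma (log2 difference 8.47 ± 0.25, adjusted p = 1.68e-07). KRT14, its usual partner, had 827 reads in close stroma and 2 in far stroma, a ratio of 432 (119 to 3580). SOX10, a factor of myoepithelial and Schwann cells, had 2477, 4159 and 2351 in close stroma, against 57.8, 81.6, 64.3 and 74.2 in far stroma (log2 difference 5.31 ± 0.21, adjusted p = 3.64e-07). TRIM29, a basal cell protein, rose as well (log2 difference 6.78 ± 0.30, adjusted p = 7.02e-07). Among the 10 largest rises by the rule for named genes were SLC28A3, a nucleoside transporter (log2 difference 9.41 ± 0.33, adjusted p = 1.68e-07), KRT15, a basal keratin (log2 difference 8.90 ± 0.31, adjusted p = 1.68e-07), SPINT1, a protease inhibitor of epithelia (log2 difference 8.73 ± 0.43, adjusted p = 1.27e-06), and TFAP2C, an AP-2 factor (log2 difference 8.58 ± 0.29, adjusted p = 1.68e-07). CYP11A1, the side-chain cleavage enzyme of steroid synthesis, had 329.8, 2538 and 1356 in close stroma, against 0.98, 0, 1.13 and 1.61 in far stroma, and 703, 1419.6, 1440.5 and 2526 in parenchyma. Its 4548 reads in close stroma stood against 3 in far stroma, a ratio of 1590 (542 to 7690). SDR9C7, a dehydrogenase of keratinised epithelium, had a ratio of 1150 (394 to 5590), and ITGB6, an integrin subunit that activates TGF-beta, of 1720 (309 to 68000).

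**Figure D2:**
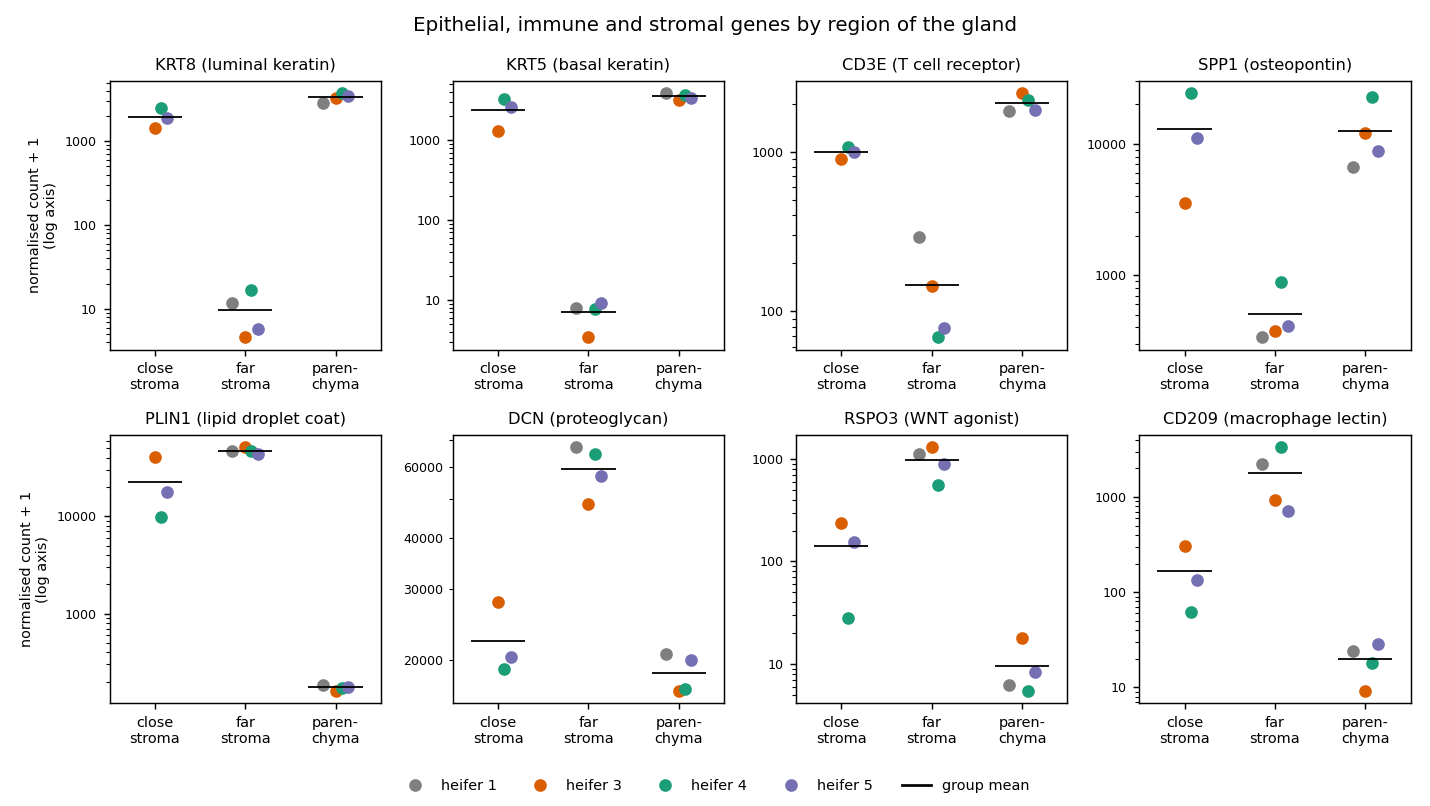
Normalised count plus 1 (log axis) in each sample of close stroma, far stroma and parenchyma for 8 genes, coloured by heifer, with black lines at the group means. KRT8, KRT5, CD3E and SPP1 stood higher in every close stroma sample than in every far stroma sample, and PLIN1, DCN, RSPO3 and CD209 stood lower.

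Milk protein genes differed between heifers in close stroma. Of 16 milk and secretory genes tested, 10 were higher and none was lower, with 0 at an unadjusted p under 0.05 (median log2 difference 5.60, or 6.06 with 2 low-read members at their pooled ratio). LTF, the iron-binding lactoferrin, had 14172, 41693 and 27159 in close stroma, against 65.6, 81.6, 88.0 and 111 in far stroma (log2 difference 7.90 ± 0.39, adjusted p = 1.27e-06). CSN3, the kappa casein, had 5274, 4442 and 17143 in close stroma, against 124, 12.0, 24.8 and 48.4 in far stroma (log2 difference 8.28 ± 0.64, adjusted p = 1.92e-05). CSN2, the beta casein, named after its values were seen, had 5598, 96.6 and 60926 in close stroma, against 349, 21.6, 36.1 and 96.8 in far stroma, and 99144, 5476, 126 and 109 in parenchyma (log2 difference 6.82 ± 1.80, adjusted p = 0.0281). Heifer 5 had the highest close stroma value of CSN2 and heifer 4 a value inside the far stroma range, whereas in parenchyma heifer 1 was highest and heifers 4 and 5 were lowest. CSN1S1, an alpha casein named on the same footing, had 2678, 47.8 and 30758 in close stroma, against 159.5, 8.40, 22.6 and 58.1 in far stroma (log2 difference 6.75 ± 1.84, adjusted p = 0.0319). LCN2, an iron-siderophore carrier, had 88.2, 4391 and 1185 in close stroma, against 5.87, 8.40, 5.64 and 4.84 in far stroma (log2 difference 6.72 ± 0.88, adjusted p = 0.000637). The milk and secretory proteins list had 10 higher genes with all samples and 6 without close stroma of heifer 5. CSN2 and CSN1S1 were not called without close stroma of heifer 5, far stroma of heifer 3 or 5 or parenchyma of heifer 4 (adjusted p 0.0546 to 0.189). CSN2 and CSN1S1 had an adjusted p of 0.133 and 0.146 without the replicate block, in that order.

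Genes of hormone response rose in part. Among 20 such receptors and responsive genes there were 9 rises and no fall, with 0 at an unadjusted p under 0.05 (median log2 difference 0.87). The progesterone receptor gene PGR had 46.0, 300.0 and 292 in close stroma, against 39.1, 40.8, 13.5 and 33.9 in far stroma (log2 difference 2.49 ± 0.58, adjusted p = 0.017). In heifer 3 its close stroma value was near the far stroma values. The oestrogen receptor gene ESR1 had 544, 685 and 588 in close stroma, against 1024, 699.8, 211 and 148 in far stroma, and did not pass (log2 difference 0.81 ± 0.51, adjusted p = 0.27). Its far stroma values spread over a range that covered the close stroma values. GATA3, a luminal transcription factor, rose (log2 difference 4.01 ± 0.31, adjusted p = 2.08e-05), as did PRLR, the prolactin receptor (log2 difference 4.02 ± 0.72, adjusted p = 0.0046), and OXTR, the oxytocin receptor of myoepithelium (log2 difference 4.52 ± 0.49, adjusted p = 0.000169). AREG, an EGF receptor ligand induced by oestrogen in mice (log2 difference 3.76 ± 0.56, adjusted p = 0.00149), and TNFSF11, the RANK ligand induced by progesterone in mice (log2 difference 3.93 ± 0.43, adjusted p = 0.000181), rose too. In the hormone receptors and responsive genes list the count of 9 higher was 5 without close stroma of heifer 5. PGR was not called without close stroma of heifer 4 or 5 or far stroma of heifer 4 or 5 (adjusted p 0.0646 to 0.116).

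Cell cycle genes rose little. Of 25, 6 were higher than in far stroma and none was lower, with 1 at an unadjusted p under 0.05 (median log2 difference 0.59). Against parenchyma 7 were lower and none was higher (median -0.97), beside 3.34% and 6.69% of all genes. MKI67, a marker of cycling cells, had 155, 111 and 130.4 in close stroma, against 117, 98.4, 20.3 and 24.2 in far stroma, and 800.0, 717, 265 and 266 in parenchyma (log2 difference 1.74 ± 0.32, adjusted p = 0.00508). Far stroma of heifers 1 and 3 lay several times above that of heifers 4 and 5, and close and far stroma overlapped. TOP2A, a topoisomerase of dividing cells, had 96.8, 55.3 and 72.5 in close stroma, against 51.9, 46.8, 14.7 and 12.9 in far stroma (log2 difference 1.77 ± 0.29, adjusted p = 0.00242). CDC20, an activator of the anaphase complex (log2 difference 1.35 ± 0.37, adjusted p = 0.0324), RRM2, a subunit of ribonucleotide reductase (log2 difference 1.83 ± 0.41, adjusted p = 0.014), and UBE2C, a ubiquitin-conjugating enzyme of mitosis (log2 difference 1.22 ± 0.36, adjusted p = 0.041), passed with the heifer as a block only. The count of 6 higher in the cell cycle list was 0 to 3 without close stroma of heifer 4 or 5, far stroma of heifer 5 or parenchyma of heifer 5 or without the replicate block. With 0 genes of the cell cycle list lower with all samples, the count was 1 without close stroma of heifer 3. CDC20 was not called without close stroma of heifer 4 or 5, far stroma of heifer 5 or parenchyma of heifer 5 (adjusted p 0.0527 to 0.174). RRM2 was not called without close stroma of heifer 4 or 5 or far stroma of heifer 5 (adjusted p 0.0504 to 0.0961). UBE2C was not called without close stroma of heifer 4 or 5, far stroma of heifer 1, 3 or 5 or parenchyma of heifer 1 or 5 (adjusted p 0.0539 to 0.213). MKI67, TOP2A, CDC20, RRM2 and UBE2C had an adjusted p of 0.135, 0.106, 0.127, 0.172 and 0.094 without the replicate block, in that order.

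Most lymphocyte genes rose in close stroma too. All 19 tested genes of T and NK cells rose in close stroma (median log2 difference 2.71), and 15 to 19 passed with 1 sample left out. CD3E, a chain of the T cell receptor complex, had 900.3, 1069.7 and 995 in close stroma, against 289.7, 144, 67.7 and 77.4 in far stroma, and 1795, 2331, 2097 and 1825 in parenchyma (log2 difference 3.19 ± 0.36, adjusted p = 0.000255). Close stroma lay between the other regions in each of the 3 heifers. CD2, an adhesion receptor of T cells (log2 difference 3.13 ± 0.27, adjusted p = 4.37e-05), LCK, a kinase of T cell receptor signalling (log2 difference 2.81 ± 0.34, adjusted p = 0.000381), ZAP70, another such kinase (log2 difference 2.20 ± 0.22, adjusted p = 0.000104), and TRAT1, an adaptor of that receptor (log2 difference 3.81 ± 0.40, adjusted p = 0.00014), rose as well. Of 13 B and plasma cell genes, 10 were higher and 1, CR2, was lower (median log2 difference 2.15). The summed B and plasma cell list in close stroma was 94.3% of far stroma in heifer 3, 114% in heifer 4 and 243% in heifer 5. CD79A, a chain of the B cell receptor, had 92.0, 188 and 176 in close stroma, against 10.8, 4.80, 7.90 and 11.3 in far stroma (log2 difference 3.97 ± 0.35, adjusted p = 4.53e-05). JCHAIN, which joins immunoglobulin A and M units, had 384, 655 and 1195 in close stroma, against 351, 64.8, 75.6 and 85.5 in far stroma (log2 difference 2.80 ± 0.47, adjusted p = 0.00315). POU2AF1, a B cell coactivator, rose (log2 difference 4.46 ± 0.64, adjusted p = 0.00115). The B and plasma cells list had 10 higher genes with all samples and 5 to 6 without close stroma of heifer 4 or 5 or far stroma of heifer 4 or 5. The count of 1 lower was 0 without close stroma of heifer 4 or 5 or far stroma of heifer 4 and 2 without far stroma of heifer 3 or by DESeq2.

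Genes of dendritic cells and immune signalling passed in part. Of 15 dendritic cell and antigen presentation genes, 9 were higher and none was lower, with 0 at an unadjusted p under 0.05 (median log2 difference 0.97). IRF8, a factor of dendritic cells, had 322, 483 and 377 in close stroma, against 145, 107, 137 and 56.5 in far stroma (log2 difference 1.94 ± 0.28, adjusted p = 0.00125). LAMP3, a protein of mature dendritic cells, rose too (log2 difference 2.37 ± 0.36, adjusted p = 0.00164), and CLEC9A, a receptor of cross-presenting dendritic cells, had 48 reads in close stroma and 3 in far stroma, a ratio of 16.7 (5.39 to 84.0). The count of 9 higher in the dendritic cells and antigen presentation list was 4 to 5 without close stroma of heifer 4 or 5, far stroma of heifer 4 or 5 or parenchyma of heifer 4. With 0 genes of the dendritic cells and antigen presentation list lower with all samples, the count was 1 without far stroma of heifer 5. Of 20 interferon-stimulated genes, 5 were higher and none was lower, with 2 at an unadjusted p under 0.05: IFI44, IFI44L (log2 difference 2.43 ± 0.28, adjusted p = 0.000249), IFIH1, IRF7 and MX2, an antiviral GTPase (log2 difference 2.66 ± 0.32, adjusted p = 0.000373).

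Of 25 chemokines and cytokines, 8 were higher and 2, CCL16 and CCL24, were lower (median log2 difference 0.50). CCL28, an epithelial chemokine that attracts plasma cells, had 71.0, 306 and 209 in close stroma, against 3.91, 1.2, 1.13 and 1.61 in far stroma (log2 difference 5.91 ± 0.53, adjusted p = 4.94e-05). CXCL10, an interferon-induced chemokine, had 87.2, 136 and 197 in close stroma, against 51.9, 15.6, 2.26 and 8.06 in far stroma (log2 difference 3.85 ± 0.57, adjusted p = 0.00137), and CCL5, a T cell chemokine, rose (log2 difference 2.70 ± 0.30, adjusted p = 0.000219). The chemokines and cytokines list had 8 higher genes with all samples and 3 without close stroma of heifer 4 or 5 or far stroma of heifer 4. The count of 2 lower was 0 to 1 without close stroma of heifer 4 or 5 or far stroma of heifer 4. Of 22 complement genes, C3, C7 and CFI were higher and C1QA, C1R, C1S, C2 and CFP were lower (median log2 difference -0.82, 0.42 after fibroblast centring). CFI, a protease that inactivates C3b, had 523, 1246 and 465 in close stroma, against 43.1, 26.4, 44.0 and 19.4 in far stroma (log2 difference 4.32 ± 0.36, adjusted p = 3.19e-05). C3, the central component, had 2588, 8370.4 and 3967 in close stroma, against 1297, 774, 559 and 482 in far stroma (log2 difference 2.68 ± 0.49, adjusted p = 0.00508). The count of 5 lower in the complement list was 0 to 3 without close stroma of heifer 4 or 5, far stroma of heifer 4 or parenchyma of heifer 5 or by edgeR with TMM and 8 to 14 without close stroma of heifer 3 or far stroma of heifer 3 or by DESeq2.

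**Figure D3:**
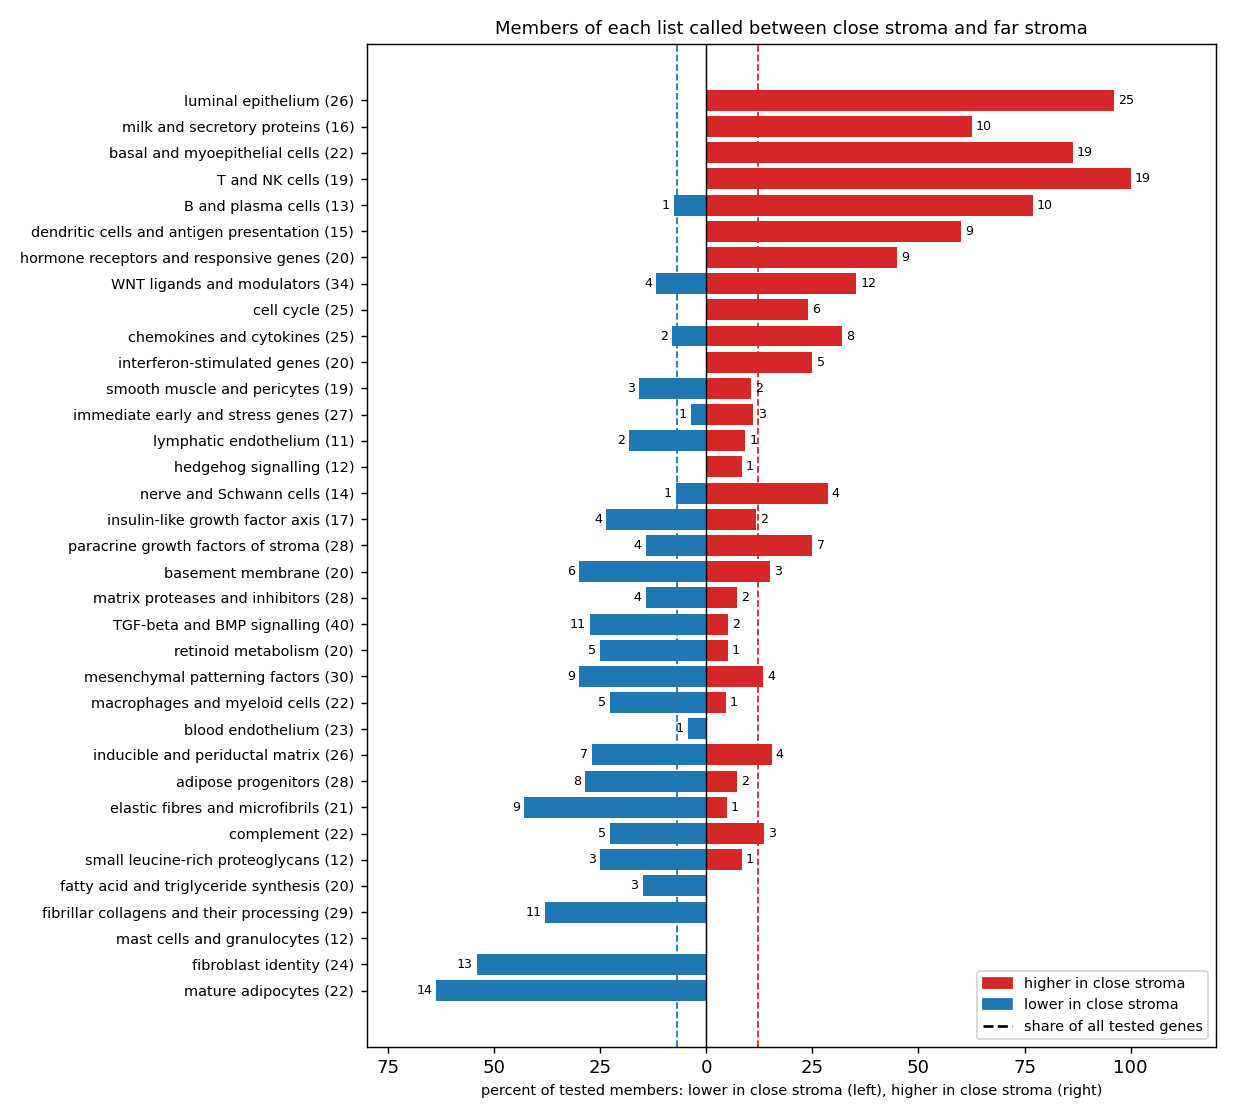
Share of the tested members of each gene list (number tested in brackets) called higher (red, right) or lower (blue, left) in close stroma than in far stroma, with the counts beside the bars and dashed lines at the shares of all genes tested, 12.1% and 6.88%. All 19 genes of T and NK cells and 25 of 26 luminal genes stood higher, and 14 of 22 adipocyte genes and 13 of 24 fibroblast genes were lower on the deposited scale.

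The 10 largest falls by the rule for named genes held no adipocyte list gene. They were AOC1, CD209, RSPO3, CLEC4G, CCL24, ECM1, FGF14, F13A1, SFRP4 and TMEFF2. CD209, a lectin of macrophages and dendritic cells, had 309, 60.9 and 134 in close stroma, against 2229, 939, 3372 and 711 in far stroma, and 23.4, 8.13, 16.9 and 27.5 in parenchyma (log2 difference -3.28 ± 0.68, adjusted p = 0.00969). Every close stroma sample lay below every far stroma sample and above every parenchyma sample. F13A1, the factor XIII subunit made by tissue macrophages, had 1974, 284 and 855 in close stroma, against 12389, 6839, 6098 and 2301 in far stroma (log2 difference -2.70 ± 0.55, adjusted p = 0.00891), and was lower in each of the 3 heifers. CCL24, an eosinophil chemokine, had 252, 52.5 and 127 in close stroma, against 1669, 528, 2737 and 597 in far stroma (log2 difference -3.10 ± 0.66, adjusted p = 0.0108). CLEC4G, a lectin described in sinusoidal endothelium, had 28.8, 3.75 and 10.9 in close stroma, against 184, 68.4, 258 and 62.9 in far stroma (log2 difference -3.19 ± 0.76, adjusted p = 0.0186). AOC1, the diamine oxidase that degrades histamine, had 558, 38.4 and 189 in close stroma, against 2947, 1485, 3959 and 766 in far stroma (log2 difference -3.38 ± 0.79, adjusted p = 0.0172). In far stroma, heifers 1 and 4 stood above heifers 3 and 5 for CD209, CCL24, CLEC4G and AOC1. Here and for every fall below, fewer cells of a type and less RNA per cell cannot be told apart in tissue RNA. F13A1 and CCL24 were not called without close stroma of heifer 4 (adjusted p 0.0543 to 0.0553). CLEC4G was not called without close stroma of heifer 4 or 5 or far stroma of heifer 4 (adjusted p 0.0694 to 0.0876). AOC1 was not called without close stroma of heifer 4 or 5 (adjusted p 0.0522 to 0.111).

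Most macrophage genes did not pass. Of 22 macrophage and myeloid genes, CD209, F13A1, CD163, LYVE1 and C1QA were lower and LYZ was higher (median log2 difference -0.57, 0.67 after fibroblast centring), against 6.88% and 12.1% of all genes. The summed list in close stroma was 59.3% of far stroma in heifer 3, 20.1% in heifer 4 and 75.4% in heifer 5. Abundant genes weigh most in such a sum. The median log2 difference of the list was -0.50 in heifer 3, -1.50 in heifer 4 and 0.26 in heifer 5. CD163, a scavenger receptor for haemoglobin, had 538, 134 and 361 in close stroma, against 2056, 1229, 2335 and 627 in far stroma (log2 difference -2.13 ± 0.51, adjusted p = 0.0196). C1QA, a complement chain made by macrophages, had 1906, 1322 and 1106 in close stroma, against 6874, 3187, 9924 and 2166 in far stroma, and 1986, 2028, 1272 and 1271 in parenchyma (log2 difference -1.58 ± 0.39, adjusted p = 0.0215). LYVE1, a hyaluronan receptor of lymphatic endothelium and of some macrophages, fell (log2 difference -1.61 ± 0.39, adjusted p = 0.0196). LYZ, lysozyme, had 413, 319 and 235 in close stroma, against 106, 223, 79.0 and 43.5 in far stroma (log2 difference 1.71 ± 0.27, adjusted p = 0.00206). The count of 5 lower in the macrophages and myeloid cells list was 1 to 3 without close stroma of heifer 4 or 5 and 8 without far stroma of heifer 5. CD163 was not called without close stroma of heifer 4 (adjusted p = 0.127). C1QA was not called without close stroma of heifer 4 or 5 (adjusted p 0.0738 to 0.148). LYVE1 was not called without close stroma of heifer 4 or 5 or far stroma of heifer 4 (adjusted p 0.0564 to 0.135).

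Adipocyte genes were lower in close stroma than in far stroma and far above parenchyma. Of 22 mature adipocyte genes tested, 14 were lower than in far stroma and none was higher, with 0 at an unadjusted p under 0.05 (median log2 difference -1.23, 0.0013 after fibroblast centring). Against parenchyma, 19 were higher and none was lower (median 3.73), beside 6.69% and 3.34% of all genes. Their summed values in close stroma were 82.9% of far stroma in heifer 3, 20.1% in heifer 4 and 29.8% in heifer 5. LEP, the leptin gene, had 3999, 965 and 1410.1 in close stroma, against 6337, 7689, 3137 and 5053 in far stroma, and 8.29, 12.2, 8.91 and 9.16 in parenchyma (log2 difference -1.57 ± 0.28, adjusted p = 0.0039). Its close stroma value in heifer 3 lay inside the far stroma range, and the call held with each sample left out. PLIN1, which coats the lipid droplet, had 40463, 9847 and 17740.4 in close stroma, against 46598, 51904, 46967 and 43956 in far stroma (log2 difference -1.29 ± 0.34, adjusted p = 0.0273). Heifer 3 lay just below the far stroma range, and heifers 4 and 5 well below it. CIDEC, a protein that fuses lipid droplets, had 30647, 8323 and 14401 in close stroma, against 32954, 40551, 52823 and 62471 in far stroma (log2 difference -1.62 ± 0.41, adjusted p = 0.0226). PPARG, the adipocyte master regulator (log2 difference -1.12 ± 0.28, adjusted p = 0.0239, log2 difference 0.12 after fibroblast centring), and RBP4, a retinol carrier (log2 difference -1.62 ± 0.41, adjusted p = 0.0236), fell too. ADIPOQ, the adiponectin gene, had 9496, 2505 and 6272 in close stroma, against 11303, 10236, 9389.8 and 8032 in far stroma, and did not pass (log2 difference -0.75 ± 0.32, adjusted p = 0.121, log2 difference 0.48 after fibroblast centring). The mature adipocytes list had 14 lower genes with all samples and 1 to 7 without close stroma of heifer 4 or 5, far stroma of heifer 4 or 5 or parenchyma of heifer 4 or 5 or by edgeR with TMM. PLIN1 was not called without close stroma of heifer 4 or 5, far stroma of heifer 4 or 5 or parenchyma of heifer 5 (adjusted p 0.0503 to 0.172). CIDEC, PPARG and RBP4 were not called without close stroma of heifer 4 or 5 or far stroma of heifer 4 or 5 (adjusted p 0.0822 to 0.162). ADIPOQ was called without close stroma of heifer 3 (adjusted p = 0.0271). PLIN1 was not called by edgeR with TMM (adjusted p = 0.0603).

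Fatty acid and triglyceride synthesis gave 3 falls and no rise among 20 genes (median log2 difference -0.87, 0.37 after fibroblast centring). At an unadjusted limma p under 0.05, 8 were lower and 0 higher. The 3 falls were as follows. ME1, the malic enzyme that supplies NADPH, had 1215, 278 and 438 in close stroma, against 1627, 1949, 1516 and 1542 in far stroma (log2 difference -1.63 ± 0.35, adjusted p = 0.0115). DGAT1, the last enzyme of triglyceride synthesis (log2 difference -0.91 ± 0.24, adjusted p = 0.0286, log2 difference 0.32 after fibroblast centring), and MLXIPL, the carbohydrate response factor (log2 difference -0.95 ± 0.29, adjusted p = 0.0479, log2 difference 0.28 after fibroblast centring), were the others. GPD1, which links glycolysis to glycerol, did not pass (log2 difference -1.46 ± 0.47, adjusted p = 0.0545). In the fatty acid and triglyceride synthesis list the count of 3 lower was 0 to 1 without close stroma of heifer 4 or 5 or far stroma of heifer 4 or 5 and 6 to 12 without close stroma of heifer 3 or parenchyma of heifer 3 or by DESeq2. ME1 was not called without close stroma of heifer 4 or 5 or far stroma of heifer 4 (adjusted p 0.0541 to 0.0795). DGAT1 was not called without close stroma of heifer 4 or 5, far stroma of heifer 4 or 5 or parenchyma of heifer 4 (adjusted p 0.051 to 0.202). MLXIPL was not called without close stroma of heifer 4 or 5, far stroma of heifer 3, 4 or 5 or parenchyma of heifer 3 or 4 (adjusted p 0.0508 to 0.294). GPD1 was called without close stroma of heifer 3 or far stroma of heifer 3 (adjusted p 0.00162 to 0.0389). DGAT1 and MLXIPL were not called with library-total scaling (adjusted p of 0.0794 and 0.147). MLXIPL was not called by edgeR with TMM (adjusted p = 0.0551). GPD1 was called by DESeq2 (adjusted p = 0.0193). DGAT1 and GPD1 had an adjusted p of 0.0731 and 0.0418 without the replicate block, in that order.

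Fibroblast genes were lower too. Of 24 fibroblast identity genes, 13 were lower and none was higher, with 0 at an unadjusted p under 0.05 (median log2 difference -0.95, 0.28 after fibroblast centring). The list's sum in close stroma was 64.0% of far stroma in heifer 3, 27.7% in heifer 4 and 34.0% in heifer 5. S100A4, a calcium-binding protein of fibroblasts and leukocytes, had 2291, 1489 and 997 in close stroma, against 6066, 5763, 6004 and 6979 in far stroma, and 901, 898, 935 and 1122 in parenchyma (log2 difference -2.06 ± 0.26, adjusted p = 0.000463). All close stroma samples lay below all far stroma samples. SCARA5, a ferritin receptor, had 2523, 1858 and 2448 in close stroma, against 7516, 3998, 8826 and 6298 in far stroma (log2 difference -1.46 ± 0.27, adjusted p = 0.00498). S100A4 and SCARA5 passed with each sample left out. SERPINF1, an anti-angiogenic secreted factor (log2 difference -1.85 ± 0.40, adjusted p = 0.0118), THY1, a surface glycoprotein (log2 difference -1.42 ± 0.31, adjusted p = 0.0125), and NT5E, the surface nucleotidase CD73 (log2 difference -1.14 ± 0.24, adjusted p = 0.0107, log2 difference 0.09 after fibroblast centring), fell with all samples. PDGFRA, a receptor of fibroblasts, had 956, 1153 and 2117 in close stroma, against 1782, 1877, 1291 and 1645 in far stroma, and did not pass (log2 difference -0.29 ± 0.23, adjusted p = 0.373, log2 difference 0.95 after fibroblast centring). In heifer 5 it was higher in close than in far stroma. The count of 13 lower in the fibroblast identity list was 2 to 4 without close stroma of heifer 4 or 5 or far stroma of heifer 4. Over the 3 close stroma samples the luminal sum was lowest in heifer 3 (28581) and highest in heifer 4 (63879), while the fibroblast sum was highest in heifer 3 (124923) and lowest in heifer 4 (62487). The part of the epithelial share in the stromal falls was not tested. SERPINF1 and THY1 were not called without close stroma of heifer 4 or 5 or far stroma of heifer 4 (adjusted p 0.0527 to 0.0937). NT5E was not called without close stroma of heifer 4 or 5 (adjusted p 0.0636 to 0.0818).

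Among 28 genes of adipose progenitors, 8 were lower and KLF5 and LY6E were higher (median log2 difference -0.64, 0.59 after fibroblast centring). CD34, a sialomucin of progenitors and endothelium, had 3463, 2888 and 2068 in close stroma, against 7447, 5417, 9168 and 7130.2 in far stroma (log2 difference -1.33 ± 0.23, adjusted p = 0.00407), and passed with each sample left out. ZNF423, a factor of committed preadipocytes in mice, had 636, 294 and 347 in close stroma, against 1068, 871, 919 and 909.6 in far stroma (log2 difference -1.14 ± 0.23, adjusted p = 0.00752, log2 difference 0.09 after fibroblast centring). MFAP5, a microfibril protein, fell too (log2 difference -1.82 ± 0.40, adjusted p = 0.0132). KLF5, a factor of adipogenesis that epithelia also make, rose (log2 difference 2.25 ± 0.31, adjusted p = 0.000948). The count of 2 higher in the adipose progenitors list was 1 without close stroma of heifer 4. With all samples 8 were lower, and 1 to 5 without close stroma of heifer 4 or 5, far stroma of heifer 4 or parenchyma of heifer 4 or by edgeR with TMM and 14 without close stroma of heifer 3 or by DESeq2. ZNF423 was not called without close stroma of heifer 4 or 5 (adjusted p 0.058 to 0.0625). MFAP5 was not called without close stroma of heifer 4 or 5 or far stroma of heifer 4 (adjusted p 0.0608 to 0.0961).

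Collagen genes followed the fibroblast genes in direction. Of 29 genes of fibrillar collagens and their processing, 11 were lower and none was higher, with 1 at an unadjusted p under 0.05 (median log2 difference -0.93, 0.30 after fibroblast centring). COL1A1, the main chain of type I collagen, had 67399.6, 9257 and 11544 in close stroma, against 112075, 143028, 101549 and 47902 in far stroma (log2 difference -2.09 ± 0.69, adjusted p = 0.0596). The groups overlapped, since heifer 3 of close stroma lay above heifer 5 of far stroma. PCOLCE2, an enhancer of procollagen cleavage, had 3501, 933 and 1571 in close stroma, against 11395, 6234, 14204 and 11488 in far stroma, and 190.0, 74.8, 91.8 and 172 in parenchyma (log2 difference -2.46 ± 0.47, adjusted p = 0.00626). P4HA2, a collagen prolyl hydroxylase, had 691, 515 and 596 in close stroma, against 1180.3, 1259, 1036 and 1149.9 in far stroma (log2 difference -0.93 ± 0.15, adjusted p = 0.0028, log2 difference 0.30 after fibroblast centring). PCOLCE2 and P4HA2 passed with each sample left out. The crosslinking oxidases LOXL4 (log2 difference -1.88 ± 0.37, adjusted p = 0.00707) and LOXL2 (log2 difference -1.27 ± 0.30, adjusted p = 0.0188) and the procollagen protease ADAMTS2 (log2 difference -1.70 ± 0.40, adjusted p = 0.0177) fell with all samples. With 0 genes of the fibrillar collagens and their processing list higher with all samples, the count was 1 without close stroma of heifer 3. There were 11 lower genes with all samples, and 2 to 7 without close stroma of heifer 4 or 5 or far stroma of heifer 3, 4 or 5 and 17 to 21 without close stroma of heifer 3 or parenchyma of heifer 3. LOXL4 was not called without close stroma of heifer 4 or 5 (adjusted p 0.0538 to 0.0558). LOXL2 was not called without close stroma of heifer 4 or 5 or far stroma of heifer 4 or 5 (adjusted p 0.0648 to 0.127). ADAMTS2 was not called without close stroma of heifer 4 or 5 or far stroma of heifer 4 (adjusted p 0.0778 to 0.124). COL1A1 was called without close stroma of heifer 3 or parenchyma of heifer 3 (adjusted p 0.0053 to 0.02). COL1A1 had an adjusted p of 0.0409 without the replicate block.

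Of 21 elastic fibre and microfibril genes, 9 were lower and FBN2 was higher (median log2 difference -0.80, 0.43 after fibroblast centring). FBN1, the main fibrillin, had 4552, 2248 and 2969.6 in close stroma, against 19816, 11610.3, 8447 and 6617 in far stroma (log2 difference -1.52 ± 0.26, adjusted p = 0.00382), and passed with each sample left out. FBN2, the fibrillin of developing tissue, had 13.4, 10.3 and 23.6 in close stroma, against 5.87, 3.60, 4.51 and 1.61 in far stroma, and 108, 30.9, 28.5 and 49.4 in parenchyma (log2 difference 2.08 ± 0.47, adjusted p = 0.0148). The related genes EFEMP2 (log2 difference -1.05 ± 0.21, adjusted p = 0.00732, log2 difference 0.19 after fibroblast centring) and FBLN2 (log2 difference -1.49 ± 0.32, adjusted p = 0.0113), for fibulins, fell. The count of 1 higher in the elastic fibres and microfibrils list was 0 without close stroma of heifer 5. With all samples 9 were lower, and 1 to 3 without close stroma of heifer 4 or 5 or far stroma of heifer 4. Of 12 small leucine-rich proteoglycans, DCN, BGN and PODN were lower and PODNL1 was higher (median log2 difference -0.86, 0.37 after fibroblast centring). DCN, decorin, had 27713, 18940.3 and 20252 in close stroma, against 67287, 48624, 64678 and 57111 in far stroma (log2 difference -1.36 ± 0.28, adjusted p = 0.00853). PODNL1, a podocan relative, had 89.2, 257 and 201 in close stroma, against 63.6, 58.8, 51.9 and 62.9 in far stroma (log2 difference 1.43 ± 0.31, adjusted p = 0.0111). BGN, biglycan (log2 difference -1.20 ± 0.37, adjusted p = 0.0492, log2 difference 0.03 after fibroblast centring), and PODN, podocan (log2 difference -1.35 ± 0.33, adjusted p = 0.0204), were called with all samples. In the small leucine-rich proteoglycans list the count of 1 higher was 0 without close stroma of heifer 4 or 5 or far stroma of heifer 4 and 2 without parenchyma of heifer 5 or by DESeq2. There were 3 lower genes with all samples, and 0 to 1 without close stroma of heifer 4 or 5 or far stroma of heifer 4 and 5 to 8 without close stroma of heifer 3 or parenchyma of heifer 3 or by DESeq2. FBN2 was not called without close stroma of heifer 5 (adjusted p = 0.113). EFEMP2 and DCN were not called without close stroma of heifer 4 or 5 (adjusted p 0.0541 to 0.0901). FBLN2, PODNL1 and PODN were not called without close stroma of heifer 4 or 5 or far stroma of heifer 4 (adjusted p 0.0506 to 0.142). BGN was not called without close stroma of heifer 4 or 5, far stroma of heifer 1, 3, 4 or 5 or parenchyma of heifer 1, 4 or 5 (adjusted p 0.0532 to 0.262). BGN was not called with library-total scaling (adjusted p = 0.0748). BGN was not called by edgeR with TMM (adjusted p = 0.0737). BGN had an adjusted p of 0.0731 without the replicate block.

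The genes grouped as inducible and periductal matrix split. Of 26, SPP1, HAS3, NPNT and FBN2 were higher and 7 were lower (median log2 difference -0.61, 0.62 after fibroblast centring). SPP1, osteopontin, a phosphoprotein that epithelia and macrophages secrete, had 3533, 24321 and 11057 in close stroma, against 336, 372, 893 and 413 in far stroma, and 6679.8, 12017, 22668 and 8772 in parenchyma (log2 difference 4.20 ± 0.34, adjusted p = 2.75e-05). HAS3, a hyaluronan synthase, rose (log2 difference 1.68 ± 0.28, adjusted p = 0.00283). TNXB, a tenascin of loose connective tissue, had 4799, 4286 and 3559 in close stroma, against 17278, 11499, 13571 and 13406 in far stroma (log2 difference -1.59 ± 0.32, adjusted p = 0.00795), and TGFBI, a collagen-binding protein, fell too (log2 difference -1.59 ± 0.37, adjusted p = 0.0159). TNC, the tenascin of developing stroma, had 200.4, 101 and 71.5 in close stroma, against 96.9, 99.6, 68.8 and 74.2 in far stroma (log2 difference 0.56 ± 0.44, adjusted p = 0.374), and POSTN, periostin, had 465, 379 and 398 in close stroma, against 233, 547, 228 and 221 in far stroma (log2 difference 0.62 ± 0.85, adjusted p = 0.617). Neither passed, and in both genes the regions overlapped. The count of 4 higher in the inducible and periductal matrix list was 2 without close stroma of heifer 5. With all samples 7 were lower, and 0 to 4 without close stroma of heifer 4 or 5 or far stroma of heifer 4 or 5 and 12 to 13 without close stroma of heifer 3 or by DESeq2. TNXB was not called without close stroma of heifer 5 (adjusted p = 0.0581). TGFBI was not called without close stroma of heifer 4 or 5 (adjusted p 0.0778 to 0.115).

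Basement membrane genes moved both ways, with AGRN, COL4A5 and SMOC2 higher and 6 lower of 20 (median log2 difference -0.38, 0.85 after fibroblast centring). AGRN, agrin, had 996, 1598 and 1744 in close stroma, against 435, 586, 416 and 616 in far stroma (log2 difference 1.42 ± 0.21, adjusted p = 0.00127). COL4A5, a type IV collagen chain (log2 difference 2.03 ± 0.34, adjusted p = 0.00312), and SMOC2, a calcium-binding matrix protein (log2 difference 1.18 ± 0.23, adjusted p = 0.00642), rose too. LAMB2, a laminin chain, had 7679.5, 3128 and 3567 in close stroma, against 9795, 10409, 13496 and 14354 in far stroma (log2 difference -1.49 ± 0.30, adjusted p = 0.00795), and LAMC1, its partner chain, fell (log2 difference -0.74 ± 0.21, adjusted p = 0.037, log2 difference 0.49 after fibroblast centring). In the basement membrane list the count of 3 higher was 5 to 6 without close stroma of heifer 3, far stroma of heifer 1 or parenchyma of heifer 1. There were 6 lower genes with all samples, and 0 to 3 without close stroma of heifer 4 or 5, far stroma of heifer 3, 4 or 5 or parenchyma of heifer 4 or 5 or by edgeR with TMM and 10 without close stroma of heifer 3. SMOC2 was not called without close stroma of heifer 4 (adjusted p = 0.0524). LAMB2 was not called without close stroma of heifer 4 or 5 (adjusted p 0.0626 to 0.066). LAMC1 was not called without close stroma of heifer 4 or 5, far stroma of heifer 1, 3, 4 or 5 or parenchyma of heifer 1 or 4 (adjusted p 0.0509 to 0.207). LAMC1 was not called with library-total scaling (adjusted p = 0.181). LAMC1 was not called by edgeR with TMM (adjusted p = 0.0533).

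Among 28 matrix proteases and their inhibitors, MMP9 and MMP12 were higher and TIMP2, TIMP4, MMP16 and MMP23 were lower (median log2 difference -0.45, 0.78 after fibroblast centring). MMP9, a gelatinase, had 239.7, 522 and 242 in close stroma, against 9.79, 50.4, 56.4 and 61.3 in far stroma (log2 difference 2.25 ± 0.40, adjusted p = 0.00411). MMP12, the macrophage elastase, had 34.5, 202 and 68.8 in close stroma, against 2.94, 8.40, 6.77 and 24.2 in far stroma (log2 difference 2.52 ± 0.63, adjusted p = 0.0223). The protease inhibitors TIMP4 (log2 difference -1.06 ± 0.24, adjusted p = 0.0136, log2 difference 0.17 after fibroblast centring) and TIMP2 (log2 difference -1.47 ± 0.40, adjusted p = 0.0317) fell with all samples. The count of 2 higher in the matrix proteases and inhibitors list was 1 without close stroma of heifer 4 or 5 and 4 without far stroma of heifer 3. With all samples 4 were lower, and 0 to 2 without close stroma of heifer 4 or 5 or far stroma of heifer 3, 4 or 5 and 8 without close stroma of heifer 3 or by DESeq2. MMP12 was not called without close stroma of heifer 4 or 5 (adjusted p 0.074 to 0.161). TIMP4 and TIMP2 were not called without close stroma of heifer 4 or 5 or far stroma of heifer 4 or 5 (adjusted p 0.0561 to 0.188). TIMP2 was not called by edgeR with TMM (adjusted p = 0.0528).

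The list of paracrine growth factors moved in both directions. Of 28, 7 were higher and RSPO3, FGF10, FGF1 and CSF1 were lower (median log2 difference -0.29, 0.07 with library-total scaling, 0.94 after fibroblast centring). The 7 were AREG, EREG, NRG1, PDGFA, PDGFC, RSPO1 and TGFA, and AREG is on the hormone list too. Whether stroma or epithelium made these transcripts was not tested. RSPO3, a secreted agonist that amplifies WNT signalling, had 239, 27.2 and 153 in close stroma, against 1125, 1306, 552 and 882 in far stroma, and 5.28, 17.1, 4.46 and 7.32 in parenchyma (log2 difference -3.21 ± 0.38, adjusted p = 0.00035). It stood in the same order in each of the 3 heifers, and passed with each sample left out. FGF10, the ligand that drives mammary bud growth in mice, had 307, 222 and 519.8 in close stroma, against 616, 528, 349.9 and 716 in far stroma (log2 difference -0.65 ± 0.16, adjusted p = 0.0227, log2 difference 0.59 after fibroblast centring). The related ligands FGF7, HGF and IGF1 did not pass. FGF7, a keratinocyte growth factor, had 199, 156 and 161 in close stroma, against 273, 287, 196 and 168 in far stroma (log2 difference -0.27 ± 0.24, adjusted p = 0.427, log2 difference 0.96 after fibroblast centring). HGF, the ligand of MET, had 25.9, 6.56 and 14.5 in close stroma, against 47.0, 37.2, 4.51 and 14.5 in far stroma (log2 difference -0.20 ± 0.47, adjusted p = 0.779, log2 difference 1.03 after fibroblast centring). IGF1, the growth factor that drives ductal growth, had 143, 114 and 119.5 in close stroma, against 405, 219.7, 46.3 and 45.2 in far stroma (log2 difference 0.47 ± 0.48, adjusted p = 0.495). Far stroma of heifers 1 and 3 was higher in IGF1 than close stroma of any heifer, and far stroma of heifers 4 and 5 was lower. Among the rises, NRG1, a ligand of ERBB3, had 16.3, 40.3 and 34.4 in close stroma, against 1.96, 2.40, 0 and 0 in far stroma (log2 difference 4.19 ± 0.57, adjusted p = 0.000781). TGFA, an EGF receptor ligand, had 100 reads in close stroma and none in far stroma. With far stroma set at a floor of 3 reads over the group, the ratio was 34.9. The 95% counting interval of the reads began at 27.8. PDGFC, a ligand of PDGFRA, had 300.1, 870.0 and 581 in close stroma, against 188, 133, 152 and 153 in far stroma (log2 difference 1.77 ± 0.27, adjusted p = 0.00169). In the paracrine growth factors of stroma list the count of 7 higher was 4 without close stroma of heifer 5. There were 4 lower genes with all samples, and 1 without close stroma of heifer 4 or 5 or far stroma of heifer 4 or 5 and 7 without close stroma of heifer 3 or by DESeq2. FGF10 was not called without close stroma of heifer 4 or 5 or far stroma of heifer 3, 4 or 5 (adjusted p 0.0529 to 0.161). FGF10 was not called with library-total scaling (adjusted p = 0.294). FGF10 had an adjusted p of 0.132 without the replicate block.

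In the insulin-like growth factor axis, IGF1R and STC2 were higher and IGFBP4, IGFBP5, IGFBP6 and HTRA1 were lower among 17 genes (median log2 difference -0.25, 0.11 with library-total scaling, 0.99 after fibroblast centring). IGFBP6, a binding protein that prefers IGF2, had 3959.6, 1101 and 902 in close stroma, against 9025, 7203, 10223 and 7658 in far stroma (log2 difference -2.33 ± 0.45, adjusted p = 0.00647), and passed with each sample left out. IGFBP4, another binding protein, had 4544, 3169 and 2913 in close stroma, against 6069, 7109, 5116 and 7208 in far stroma, and 4508, 5268, 5855 and 5796 in parenchyma (log2 difference -0.91 ± 0.21, adjusted p = 0.0155, log2 difference 0.32 after fibroblast centring). IGFBP5, a further binding protein (log2 difference -1.40 ± 0.36, adjusted p = 0.0261), and HTRA1, a protease that cuts such proteins (log2 difference -1.17 ± 0.26, adjusted p = 0.0136, log2 difference 0.06 after fibroblast centring), fell. STC2, stanniocalcin 2, had 60.4, 1787 and 645 in close stroma, against 11.7, 16.8, 84.6 and 48.4 in far stroma (log2 difference 3.24 ± 0.62, adjusted p = 0.00622), with heifer 3 of close stroma inside the far stroma range. The count of 2 higher in the insulin-like growth factor axis list was 1 without close stroma of heifer 4 or 5, far stroma of heifer 4 or 5 or parenchyma of heifer 3 or 4 or by edgeR with TMM. With all samples 4 were lower, and 1 to 2 without close stroma of heifer 4 or 5 or far stroma of heifer 4. IGFBP4 was not called without close stroma of heifer 4 or 5 or far stroma of heifer 5 (adjusted p 0.0671 to 0.117). IGFBP5 and HTRA1 were not called without close stroma of heifer 4 or 5 or far stroma of heifer 4 (adjusted p 0.0606 to 0.178). IGFBP4 was not called with library-total scaling (adjusted p = 0.0611). IGFBP5 had an adjusted p of 0.0565 without the replicate block.

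Of 34 WNT ligands and modulators, 12 were higher and SFRP4, SFRP5, WNT10B and WNT11 were lower (median log2 difference 0.60). The 12 were DKK1, FZD1, FZD2, FZD7, LEF1, ROR1, SFRP1, TCF7, WNT5B, WNT6, WNT7B and WNT10A. Within heifers 3, 4 and 5 the median difference was -0.08, 0.64 and 0.80. The list's sum in close stroma was nevertheless below far stroma, at 64.8%, 76.5% and 80.6% in the same order. Which cells made these transcripts was not tested. DKK1, a secreted WNT inhibitor, had 241 reads in close stroma and 1 in far stroma, a ratio of 252 (44.8 to 10000). WNT6 had 95.9, 157 and 180.2 in close stroma, against 10.8, 9.60, 16.9 and 30.6 in far stroma (log2 difference 3.04 ± 0.26, adjusted p = 3.77e-05), and WNT5B, a non-canonical ligand, had 149, 223 and 153 in close stroma, against 38.2, 20.4, 29.3 and 27.4 in far stroma (log2 difference 2.59 ± 0.28, adjusted p = 0.000164). WNT10A had 78 reads in close stroma and 2 in far stroma, a ratio of 40.8 (10.9 to 343). SFRP1 and SFRP4 encode related decoys that bind WNT ligands, and they moved in opposite directions. SFRP1 had 193, 827 and 815 in close stroma, against 116, 52.8, 83.5 and 59.7 in far stroma (log2 difference 2.81 ± 0.36, adjusted p = 0.000597). SFRP4 had 449.6, 134 and 180.2 in close stroma, against 3041, 1349, 1873 and 1227 in far stroma (log2 difference -2.67 ± 0.63, adjusted p = 0.0174). In the WNT ligands and modulators list the count of 12 higher was 7 without close stroma of heifer 4. There were 4 lower genes with all samples, and 0 to 2 without close stroma of heifer 4 or 5 or far stroma of heifer 4 or 5 and 7 to 8 without close stroma of heifer 3 or by DESeq2. SFRP4 was not called without close stroma of heifer 4 or 5 or far stroma of heifer 4 (adjusted p 0.0784 to 0.116).

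In TGF-beta and BMP signalling, ID4 and BAMBI were higher and 11 of 40 genes were lower (median log2 difference -0.47, 0.77 after fibroblast centring). FST, follistatin, which binds activins, had 287, 99.4 and 166 in close stroma, against 801, 484, 658 and 485 in far stroma (log2 difference -1.78 ± 0.34, adjusted p = 0.00581), and passed with each sample left out. CHRDL1, a BMP antagonist, had 7164, 2101 and 4399.6 in close stroma, against 13380.3, 12249, 10156 and 13646 in far stroma (log2 difference -1.61 ± 0.33, adjusted p = 0.00847). CHRD, chordin, another BMP antagonist, had 99.7, 89.1 and 72.5 in close stroma, against 197, 154, 348 and 208 in far stroma, and 213, 148, 211 and 167 in parenchyma (log2 difference -1.30 ± 0.25, adjusted p = 0.00672). FSTL1, a follistatin relative, fell too (log2 difference -1.26 ± 0.23, adjusted p = 0.00515). ID4, an inhibitor of basic helix-loop-helix factors, had 265, 439 and 423 in close stroma, against 101, 110.4, 128 and 75.8 in far stroma (log2 difference 1.82 ± 0.22, adjusted p = 0.000347). The count of 2 higher in the TGF-beta and BMP signalling list was 1 without close stroma of heifer 4 or 5 or far stroma of heifer 5 and 4 to 6 without close stroma of heifer 3, far stroma of heifer 1 or 3 or parenchyma of heifer 1 or by DESeq2. With all samples 11 were lower, and 1 to 7 without close stroma of heifer 4 or 5, far stroma of heifer 4 or 5 or parenchyma of heifer 4. Of 12 hedgehog genes, BOC, a co-receptor, was higher and none was lower, with 2 at an unadjusted p under 0.05. In the hedgehog signalling list the count of 1 higher was 3 to 4 without close stroma of heifer 3 or far stroma of heifer 3. With 0 genes of the hedgehog signalling list lower with all samples, the count was 1 to 2 without close stroma of heifer 3, far stroma of heifer 3 or 5 or parenchyma of heifer 3 or 4 or by DESeq2. CHRDL1 and CHRD were not called without close stroma of heifer 4 or 5 (adjusted p 0.0502 to 0.0644). FSTL1 was not called without close stroma of heifer 4 (adjusted p = 0.0509).

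Genes that pattern mesenchyme included rises and falls. Of 30, LMX1B, MSX2, ALX4 and TBX3 were higher and 9 were lower (median log2 difference -0.55, 0.68 after fibroblast centring). LMX1B, a LIM homeobox factor, had 188, 547 and 566 in close stroma, against 3.91, 9.60, 19.2 and 8.06 in far stroma, and 574, 604, 613 and 1044 in parenchyma (log2 difference 5.09 ± 0.39, adjusted p = 1.92e-05). EN1, the engrailed homeobox factor, had 106, 22.5 and 68.8 in close stroma, against 154, 181, 139 and 316 in far stroma, and 3.02, 4.88, 4.46 and 3.66 in parenchyma (log2 difference -1.84 ± 0.42, adjusted p = 0.0159). The lowest far stroma value of EN1 exceeded the highest close stroma value, and parenchyma was near 0. MSX2, a homeobox factor of epithelial buds, rose (log2 difference 1.73 ± 0.37, adjusted p = 0.0108). OSR2, an odd-skipped factor (log2 difference -1.38 ± 0.34, adjusted p = 0.0208), and TWIST2, a factor of mesenchyme (log2 difference -0.96 ± 0.24, adjusted p = 0.0214, log2 difference 0.27 after fibroblast centring), fell. The count of 4 higher in the mesenchymal patterning factors list was 1 to 2 without close stroma of heifer 4 or 5, far stroma of heifer 4 or parenchyma of heifer 4. With all samples 9 were lower, and 0 to 1 without close stroma of heifer 4 or 5 or far stroma of heifer 4 or 5. EN1 and TWIST2 were not called without close stroma of heifer 4 or 5 or far stroma of heifer 4 or 5 (adjusted p 0.0617 to 0.144). MSX2 was not called without close stroma of heifer 4 or 5 (adjusted p 0.061 to 0.0832). OSR2 was not called without close stroma of heifer 4 or 5 or far stroma of heifer 4 (adjusted p 0.0936 to 0.146). TWIST2 was not called with library-total scaling (adjusted p = 0.0556).

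In retinoid metabolism, STRA6 was higher and RBP4, CYP26B1, ALDH1A2, RARRES2 and RXRA were lower among 20 genes (median log2 difference -0.53, 0.70 after fibroblast centring). STRA6, the cell receptor for retinol bound to RBP4, had 52.7, 115 and 75.2 in close stroma, against 2.94, 0, 3.39 and 4.84 in far stroma, and 622, 265, 509 and 328 in parenchyma (log2 difference 4.78 ± 0.40, adjusted p = 3.23e-05). It was lower in close stroma than in parenchyma (log2 difference -2.23, adjusted p = 0.00864). CYP26B1, which degrades retinoic acid, had 177, 88.1 and 77.9 in close stroma, against 318, 519.7, 284 and 308 in far stroma (log2 difference -1.65 ± 0.30, adjusted p = 0.00504), and passed with each sample left out. ALDH1A2, which makes retinoic acid, had 23.0, 11.2 and 16.3 in close stroma, against 120.4, 62.4, 46.3 and 137 in far stroma (log2 difference -2.20 ± 0.41, adjusted p = 0.00554). In the retinoid metabolism list the count of 5 lower was 1 to 3 without close stroma of heifer 4 or 5 or far stroma of heifer 4 or 5 and 8 without close stroma of heifer 3. ALDH1A2 was not called without close stroma of heifer 5 (adjusted p = 0.0513).

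Few vessel genes passed. Of 23 blood endothelium genes, RGCC was lower and none was higher than in far stroma (median log2 difference -0.59, 0.64 after fibroblast centring). At an unadjusted limma p under 0.05, 13 were lower and 0 higher. Against parenchyma 13 were higher and none was lower (median 1.15), beside 6.69% and 3.34% of all genes. The list's sum in close stroma was 103% of far stroma in heifer 3, 52.8% in heifer 4 and 34.8% in heifer 5. PECAM1, an endothelial adhesion molecule, had 3451, 2669 and 1611 in close stroma, against 3884, 3945, 3809 and 3337 in far stroma (log2 difference -0.56 ± 0.21, adjusted p = 0.0821, log2 difference 0.67 after fibroblast centring). VWF, the von Willebrand factor, had 10115, 7913 and 4548 in close stroma, against 8742, 10784, 14424 and 13743 in far stroma (log2 difference -0.86 ± 0.29, adjusted p = 0.0659, log2 difference 0.37 after fibroblast centring). RGCC, a cell cycle regulator of endothelium, had 2316, 763 and 953 in close stroma, against 2459, 2881, 2683 and 3134 in far stroma (log2 difference -1.17 ± 0.33, adjusted p = 0.0357, log2 difference 0.06 after fibroblast centring). The count of 1 lower in the blood endothelium list was 0 without close stroma of heifer 4 or 5, far stroma of heifer 4 or 5 or parenchyma of heifer 4 or by edgeR with TMM and 3 to 16 without close stroma of heifer 3, far stroma of heifer 1 or 3 or parenchyma of heifer 1 or by DESeq2. RGCC was not called without close stroma of heifer 4 or 5, far stroma of heifer 4 or 5 or parenchyma of heifer 4 or 5 (adjusted p 0.0598 to 0.225). PECAM1 was called without close stroma of heifer 3 (adjusted p = 0.0186). VWF was called without close stroma of heifer 3 or far stroma of heifer 3 (adjusted p 0.011 to 0.0442). RGCC was not called with library-total scaling (adjusted p = 0.0579). RGCC was not called by edgeR with TMM (adjusted p = 0.0516). VWF was called by DESeq2 (adjusted p = 0.0337).

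Of 11 lymphatic genes, TFF3, which is on the hormone list too, was higher, and LYVE1 and PDPN, podoplanin (log2 difference -0.76 ± 0.19, adjusted p = 0.0203, log2 difference 0.47 after fibroblast centring), were lower (median log2 difference 0.17). The count of 1 higher in the lymphatic endothelium list was 0 without close stroma of heifer 5 and 3 without close stroma of heifer 3. With all samples 2 were lower, and 0 without close stroma of heifer 4 or 5 or far stroma of heifer 4. Of 19 smooth muscle and pericyte genes, MYH11 and ACTA2 were higher and MCAM, KCNJ8 and CSPG4 were lower (median log2 difference 0.28). MYH11, the smooth muscle myosin that myoepithelial cells also make, had 1663, 5036 and 4160.5 in close stroma, against 1189, 537, 695 and 626 in far stroma (log2 difference 2.33 ± 0.28, adjusted p = 0.000388). ACTA2, smooth muscle actin, which is also on the basal list, rose (log2 difference 1.15 ± 0.24, adjusted p = 0.0108). MCAM, an adhesion molecule of pericytes and endothelium, had 18663, 5771 and 12489.6 in close stroma, against 30154, 28840.2, 27076 and 32698 in far stroma, and 487, 284, 434 and 332 in parenchyma (log2 difference -1.36 ± 0.35, adjusted p = 0.0243), and KCNJ8, a pericyte potassium channel, fell (log2 difference -1.04 ± 0.24, adjusted p = 0.0176, log2 difference 0.20 after fibroblast centring). In the smooth muscle and pericytes list the count of 2 higher was 1 without close stroma of heifer 4 and 4 without close stroma of heifer 3. There were 3 lower genes with all samples, and 0 without close stroma of heifer 4 or 5 or far stroma of heifer 4 or 5. PDPN was not called without close stroma of heifer 4 or 5 or far stroma of heifer 4 (adjusted p 0.0533 to 0.152). ACTA2 was not called without close stroma of heifer 4 (adjusted p = 0.0763). MCAM and KCNJ8 were not called without close stroma of heifer 4 or 5 or far stroma of heifer 4 or 5 (adjusted p 0.0554 to 0.142). PDPN was not called with library-total scaling (adjusted p = 0.15).

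Of 14 nerve and Schwann cell genes, SOX10, ERBB3, MBP and PRX were higher and PMP22 was lower (median log2 difference -0.21, 0.13 with library-total scaling, 1.02 after fibroblast centring), SOX10 and ERBB3 being on epithelial lists too. The count of 4 higher in the nerve and Schwann cells list was 2 without close stroma of heifer 5. With all samples 1 was lower, and 0 without close stroma of heifer 4 or 5 and 2 to 3 without close stroma of heifer 3, far stroma of heifer 3 or parenchyma of heifer 4 or by DESeq2. By limma none of 12 mast cell and granulocyte genes passed, with 0 at an unadjusted p under 0.05 among positive differences and 5 among negative ones. With 0 genes of the mast cells and granulocytes list lower with all samples, the count was 2 to 4 without close stroma of heifer 3, far stroma of heifer 3 or 5 or parenchyma of heifer 3, without the replicate block or by DESeq2. Skeletal muscle and erythrocyte genes, of which 3 and 1 were tested, did not pass either. The sums over all 8 and 2 measured genes of these lists were under 115 and 34 normalised counts in every close stroma sample. Cells induce immediate early and stress genes soon after a stimulus. Of 27, EGR2, EGR3 and IER2 were higher and KLF4 was lower (median log2 difference 0.19), against 12.1% and 6.88% of all genes. EGR2 had 313, 196 and 58.9 in close stroma, against 49.9, 50.4, 22.6 and 6.45 in far stroma (log2 difference 2.81 ± 0.52, adjusted p = 0.00554). EGR3 (log2 difference 1.66 ± 0.41, adjusted p = 0.0217) and KLF4 (log2 difference -0.98 ± 0.29, adjusted p = 0.045, log2 difference 0.26 after fibroblast centring) were called with all samples. The count of 3 higher in the immediate early and stress genes list was 1 without close stroma of heifer 4 or far stroma of heifer 4 or 5 and 5 to 6 without parenchyma of heifer 5 or by DESeq2. Its count of 1 lower was 0 without close stroma of heifer 4 or 5, far stroma of heifer 1, 4 or 5 or parenchyma of heifer 1, 3 or 4 or by edgeR with TMM and 2 to 5 without close stroma of heifer 3 or far stroma of heifer 3. EGR3 was not called without close stroma of heifer 4 or 5 or far stroma of heifer 4 or 5 (adjusted p 0.0618 to 0.107). KLF4 was not called without close stroma of heifer 4 or 5, far stroma of heifer 1, 4 or 5 or parenchyma of heifer 1, 3 or 4 (adjusted p 0.0523 to 0.253). KLF4 was not called with library-total scaling (adjusted p = 0.0931). KLF4 was not called by edgeR with TMM (adjusted p = 0.0686).

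**Figure D4:**
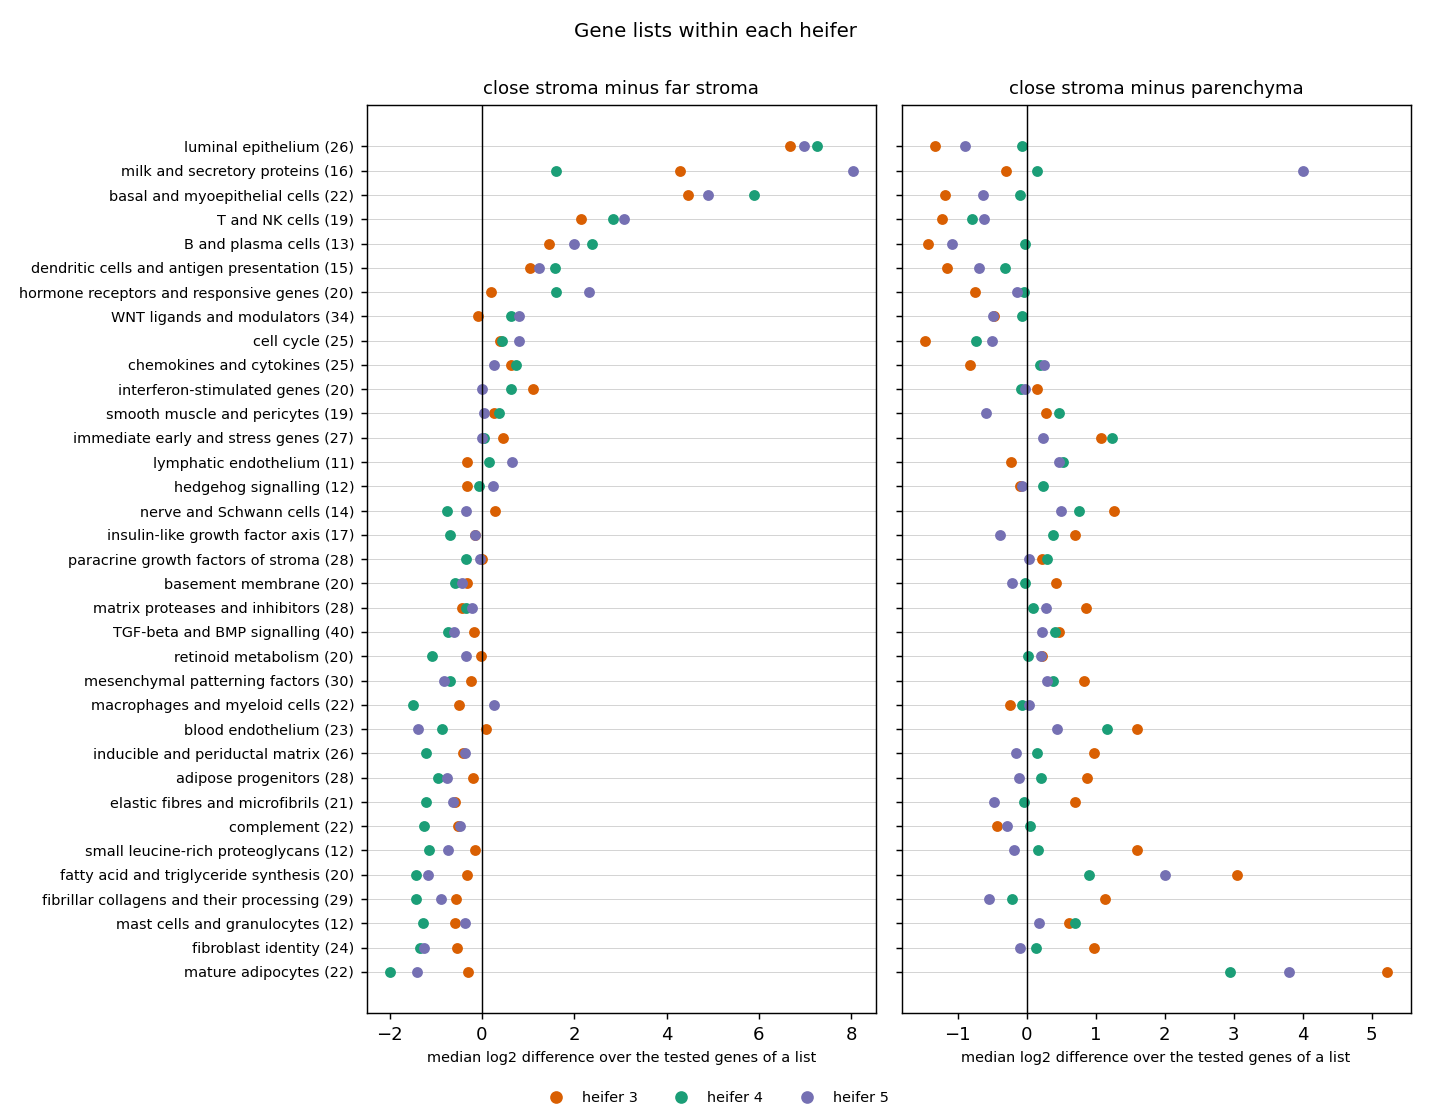
Median log2 difference over the tested genes of each list (number in brackets) within heifers 3, 4 and 5, close stroma minus far stroma on the left and close stroma minus parenchyma on the right, with a vertical line at 0. In the mature adipocyte list heifer 3 differed from its far stroma by -0.31, heifer 4 by -1.99 and heifer 5 by -1.41, while the luminal list differed by 6.68, 7.25 and 6.97.

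Within each heifer, close stroma was set beside both of that animal's other regions. The contrasts share the close stroma samples, so they are given side by side. The luminal list differed from far stroma by a median of 6.68 in heifer 3, 7.25 in heifer 4 and 6.97 in heifer 5, and from parenchyma by -1.33, -0.06 and -0.89. For fibroblast identity the medians were -0.55, -1.33 and -1.26 against far stroma and 0.97, 0.13 and -0.09 against parenchyma. Fibrillar collagen genes gave -0.56, -1.44 and -0.88 against far stroma and 1.14, -0.22 and -0.55 against parenchyma. The adipocyte list gave -0.31, -1.99 and -1.41 against far stroma and 5.23, 2.95 and 3.80 against parenchyma. In heifer 4 the epithelial, fibroblast and collagen medians of close stroma were thus near parenchyma while the adipocyte median was well above it, and in heifer 3 the fibroblast and collagen medians lay between the other regions. T and NK cell genes lay between the regions in all 3 heifers, at 2.15, 2.85 and 3.07 against far stroma and -1.23, -0.79 and -0.62 against parenchyma.

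Close stroma lay outside the span of the other regions for few genes. It was lower than both in 5 genes (0.0351% of those tested) and higher than both in 1 (0.00702%). CHRD, DNM1 and ZDHHC1 met the rule for named genes, and CD248, ANO4 and ADAMDEC1 were named after their values were seen. Without any test, all close stroma samples lay below all samples of both regions in 47 genes (0.33%) and above them in 26 (0.183%). CHRD, given above, was lower than parenchyma by 1.06 on the log2 scale (adjusted p = 0.0287), and all 3 close stroma values lay below all other samples. DNM1, a dynamin of vesicle fission, had 348, 349 and 279.8 in close stroma, against 709, 624, 711 and 419 in far stroma, and 555, 492, 533 and 572 in parenchyma (log2 difference -0.85 ± 0.19, adjusted p = 0.0132, log2 difference 0.39 after fibroblast centring). ZDHHC1, a palmitoyl transferase, had 214, 298 and 311 in close stroma, against 424, 322, 504 and 423 in far stroma, and 387, 347, 450.2 and 507 in parenchyma (log2 difference -0.62 ± 0.15, adjusted p = 0.0221, log2 difference 0.61 after fibroblast centring). CD248, endosialin of pericytes and fibroblasts, had 1570.4, 698 and 610.4 in close stroma, against 2054, 3154, 2040.5 and 1361 in far stroma, and 2791, 1864, 1568 and 2441 in parenchyma (log2 difference -1.17 ± 0.30, adjusted p = 0.025, log2 difference 0.06 after fibroblast centring). Heifer 3 of close stroma lay inside the range of both other regions. ANO4, an anoctamin, had 5.75, 2.81 and 5.43 in close stroma, against 10.8, 15.6, 16.9 and 17.7 in far stroma, and 24.9, 11.4, 20.5 and 15.6 in parenchyma (log2 difference -1.54 ± 0.45, adjusted p = 0.0413). ADAMDEC1, a metalloprotease of macrophages, had 8.63, 143 and 77.9 in close stroma, against 1.96, 1.2, 3.39 and 4.84 in far stroma, and 1.51, 1.63, 13.4 and 29.3 in parenchyma (log2 difference 3.43 ± 0.63, adjusted p = 0.00508), with heifer 3 of close stroma inside the parenchyma range. The count of 5 was 0 without the close stroma of heifer 4, 1 without that of heifer 5, without far stroma of heifer 1 or 4 or without parenchyma of heifer 4, and 2 without parenchyma of heifer 1 or 5. The count of 1 was 0 without the replicate block, without the close stroma of heifer 4 or without parenchyma of heifer 3 or 4, 5 without parenchyma of heifer 5, 8 without the close stroma of heifer 3 and 15 without the far stroma of heifer 3. The losses given next by gene concern the contrast with far stroma alone, and those of the contrast with parenchyma are not given by gene. Without far stroma of heifer 1 all 5 genes stayed called lower than far stroma (limma adjusted p 0.00798 to 0.0414). The fall of the count to 1 there thus came from the contrast with parenchyma. DNM1 and ZDHHC1 were not called without close stroma of heifer 4 or 5 or far stroma of heifer 4 (adjusted p 0.0632 to 0.137). CD248 was not called without close stroma of heifer 4 or 5 or far stroma of heifer 3 or 4 (adjusted p 0.0578 to 0.151). ANO4 was not called without close stroma of heifer 4 or 5, far stroma of heifer 3, 4 or 5 or parenchyma of heifer 4 or 5 (adjusted p 0.0561 to 0.245). DNM1, ZDHHC1 and ANO4 were not called with library-total scaling (adjusted p of 0.0835, 0.284 and 0.0715). ANO4 was not called by edgeR with TMM (adjusted p = 0.0547). ZDHHC1 had an adjusted p of 0.0607 without the replicate block.

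**Figure D5:**
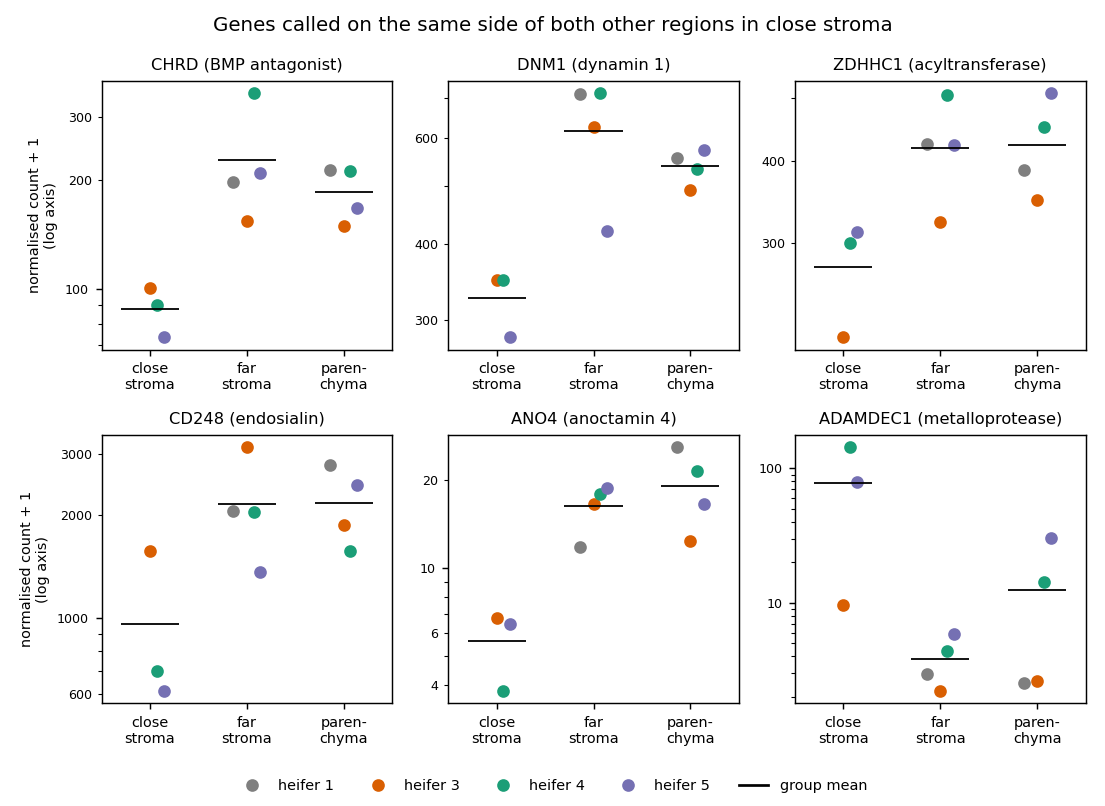
Normalised count plus 1 (log axis) in each sample of close stroma, far stroma and parenchyma for the 5 genes called lower, and ADAMDEC1, called higher, in close stroma than in both other regions, coloured by heifer, with black lines at the group means. The CHRD values of close stroma, 99.7, 89.1 and 72.5, were below every other sample.

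Fibroblast centring adds the same 1.23 to every log2 difference, so a sign after centring only states whether a fall exceeded that value. Of 69 named genes called lower, 48 had a negative difference after fibroblast centring. None of these 48 passed on that scale with the variance of each gene alone. The 10 named genes lowest after centring are the 10 largest falls given above. They had adjusted p of 0.0598 to 0.0839 in that fit. After centring the log2 difference was -2.15 for AOC1, -2.05 for CD209, -1.97 for RSPO3, -1.96 for CLEC4G and -1.87 for CCL24. It was -1.75 for ECM1, -1.53 for FGF14, -1.47 for F13A1, -1.44 for SFRP4 and -1.23 for TMEFF2. ECM1, a glycoprotein of matrix and vessels, had 1314, 321 and 274 in close stroma, against 2699, 2914, 7179 and 4147 in far stroma, and 360.4, 227, 166 and 206 in parenchyma on the deposited scale (log2 difference -2.99 ± 0.54, adjusted p = 0.00483), and passed with each sample left out. FGF14, an intracellular FGF relative that tunes sodium channels, had 30.7, 5.63 and 5.43 in close stroma, against 41.1, 36.0, 124 and 98.4 in far stroma (log2 difference -2.76 ± 0.71, adjusted p = 0.0251). TMEFF2, a transmembrane protein with follistatin modules, had 26.8, 3.75 and 7.25 in close stroma, against 104, 62.4, 38.4 and 64.5 in far stroma (log2 difference -2.46 ± 0.55, adjusted p = 0.014). FGF14 was not called without close stroma of heifer 4 or 5 or far stroma of heifer 4 or 5 (adjusted p 0.0892 to 0.168). TMEFF2 was not called without close stroma of heifer 4 or 5 or far stroma of heifer 4 (adjusted p 0.057 to 0.103).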

How the data were processed

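RNA of poly A selected libraries was measured in 11 mammary samples, and 1 table of normalised counts was used. Its values are the authors' read counts divided by 1 size factor per sample, per the file headers, so the deposited unit is a signal on the scale of counts. Per the submitters' processing notes, cutadapt, STAR, HTSeq and DESeq2 and the build ARS-UCD1.2 were used. Their versions and settings, and whether strand was counted, are not given in the sources used here, so reads of overlapping and antisense genes cannot be told apart. Promoter and protein sequences and coordinates were not used here.

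Values of log2(normalised count + 1) were fitted with limma 3.58.1 in R 4.3.3 over all 3 regions with a variance trend and with heifer as a replicate block. The heifer number names the animal in the labels, and same-heifer deviations of close and far stroma correlated at 0.222, 0.231 and 0.147, against -0.158 to 0.142 between different heifers. Genes with a mean of 10 or more in close or far stroma were tested, and p-values were adjusted by Benjamini and Hochberg over all of them. Whole reads were recovered from the steps of each column (100% of values within 0.01 of a whole number) and tested with edgeR 4.0.16 (quasi-likelihood) and DESeq2 1.42.0. The analysis scripts were tested on simulated reads in which set genes differed in close stroma and heifers did not differ. That test does not bear on how calls depend on single libraries or on scaling. Intervals of read ratios are exact at 95% and, like the floor of 3 reads, cover counting error only. A list sum is the sum of its members' normalised counts.

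The members and the 37 gene lists were chosen with earlier results of these data known. Of 826 different genes on the lists, 759 matched by symbol, 5 through RefSeq synonyms and 62 not at all. Named genes are the 10 largest differences each way without overlap between the stromal groups and with a mean of 50 or more, up to 12 outside both other regions, up to 5 members per list with the smallest p, and 17 fixed genes. CSN2, CSN1S1, ADAMDEC1, CD248 and ANO4 were added after their values were seen. Alternatives changed the block, samples, pseudocount, filter, scaling, tool and variance trend, and 2 fits with the variance of each gene alone were added after the data were seen. The 1 gene called lower after centring with its own variance is not reported here.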

Additional observations from a re-analysis of the deposited data

Results flagged for a closer look

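Of 163 named genes examined in the 4 far stroma samples, 9 had 1 sample whose distance from its nearest neighbour exceeded Dixon's 95% critical share of the group's range, and chance gives about 1 in 20. ADAMTS2 was lowest in heifer 5, at 1940.2 normalised counts. JCHAIN was highest in heifer 1, at 351. NT5E was highest in heifer 1, at 789.8. POSTN was highest in heifer 3, at 547. KRT5 was lowest in heifer 3, at 2.40. MMP9 was lowest in heifer 1, at 9.79. For DKK1 in heifer 3 (1.2), ITGB6 in heifer 5 (1.61) and WNT10A in heifer 1 (1.96), the other far stroma samples were at 0, so the distance rests on 1 or 2 reads.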

How the results depend on the processing

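With all 11 samples 1728 genes were higher and 980 lower, and without the replicate block 1524 and 872. With close and far stroma alone the counts were 1015 and 286 with the replicate block and 1132 and 396 without it, and with heifers 3, 4 and 5 alone 1043 and 303. Library-total scaling gave 3156 and 337. Fibroblast centring gave 9199 and 20 in a limma fit with infinite prior degrees of freedom. Its counts here and below are given for comparison only, and no result rests on them. With the variance of each gene alone, fits added after the data were seen, the counts were 744 and 131, and after centring 817 and 1. DESeq2 gave 1491 lower genes, a fit with no variance trend 594, and a 2-fold minimum 511. The share of calls that were higher was 63.8%, against 90.4% with library-total scaling, 99.8% with fibroblast centring, 85.0% with the variance of each gene alone, 78.0% with the 7 stromal samples and the block, and 74.1% without the block. With 1 sample left out, higher genes ranged from 885 to 2712 and lower genes from 56 to 2297. The count above both regions, 1, was 0 without the replicate block or with a mean of 50 or more, 7 with library-total scaling, 24 with fibroblast centring and limma, 2 by edgeR with TMM or RLE and with no variance trend, 8 by DESeq2, and 0 to 15 with 1 sample left out. The count below both, 5, was 2 with library-total scaling, 1 with fibroblast centring and limma, 0 with centring and the variance of each gene alone, 3 by edgeR with TMM, with no variance trend or with a 2-fold minimum, 18 by DESeq2, and 0 to 7 with 1 sample left out. Of 82 named genes called higher, 69 were called with each sample left out, and of 69 called lower, 13 were. Among the 163 named genes, 87 calls were lost with the variance of each gene alone, 38 with the 7 stromal samples and the block, 36 with heifers 3, 4 and 5 alone, 35 with the 7 samples and no block, 13 with library-total scaling, 12 each without the block and with no variance trend, 8 by edgeR with TMM and 4 with RLE. Fibroblast centring turned the log2 difference of 27 named genes positive, 21 of them called lower with the deposited scaling: ADIPOQ 0.48, BGN 0.0299, CD248 0.0648, DGAT1 0.32, DNM1 0.39, EFEMP2 0.19, FGF10 0.59, FGF7 0.96, HGF 1.03, HTRA1 0.0606, IGFBP4 0.32, KCNJ8 0.20, KLF4 0.26, LAMC1 0.49, MLXIPL 0.28, NT5E 0.0896, P4HA2 0.30, PDGFRA 0.95, PDPN 0.47, PECAM1 0.67, PPARG 0.12, RGCC 0.0603, TIMP4 0.17, TWIST2 0.27, VWF 0.37, ZDHHC1 0.61 and ZNF423 0.0913. That follows from its construction, which sets the median of the fibroblast list to the same level in every library. The median difference of that list itself was 0.28 after centring. For the other changes the cause was not tested.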
